A study of Mus musculus with 24 samples.

Results

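The genes of cholesterol synthesis and of its control by the transcription factor SREBP2 are described here, 28 of the 54532 genes in the deposited table. They were chosen by name for their known roles, with earlier results of these data known, and all 28 were found in the table. Shares of the set given beside those of all genes are therefore descriptions. They fall into 4 role groups: 8 enzymes of the mevalonate arm, 12 enzymes of the sterol arm, 4 genes of SREBP2 processing and 4 genes of sterol transport. The mevalonate arm joins acetyl-CoA units into mevalonate and turns that into isoprenoid building blocks. The sterol arm couples these blocks to squalene, closes the rings and trims the product to cholesterol. SREBP2 is held in the endoplasmic reticulum by its escort SCAP and by INSIG proteins while sterols are plentiful. When sterols run low it is released, and its active fragment raises transcription of most enzymes of the pathway and of INSIG1. In mouse models of pancreatic cancer, loss of the sterol arm enzyme Nsdhl is known to change how the tumour cells differentiate.

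The genes were measured by RNA sequencing in HY19636, a mouse line derived from pancreatic ductal adenocarcinoma (PDAC). The line was used as Phgdh knockout (KO) cells and as Phgdh wild type (WT) cells. Phgdh encodes the enzyme that opens serine synthesis from glucose, so KO cells are meant to depend on serine from outside. Each genotype was grown in medium free of serine and glycine (SG-free) and in medium that held both amino acids, and in coculture with hepatocytes and in monoculture. The 8 groups were therefore SG-free KO cocultures, KO cocultures with serine and glycine, SG-free KO monocultures, serine- and glycine-fed KO monocultures, and the 4 matching WT groups. Each group had 3 libraries, 24 in all. The labels do not say whether they are separate cultures. Every p-value below is therefore relative to library-to-library spread, part or all of which may be technical. Whether the KO cells are a single clone, which bases of Phgdh were edited and how cancer cells were parted from hepatocytes before lysis is not stated in the labels.

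Recovered totals were 15740081 to 23479425 reads per library, and values are in FPKM (fragments per kilobase, corrected for sequencing depth). Phgdh averaged 483 ± 96.6 FPKM in KO monocultures with serine and glycine, against 922 ± 16.6 FPKM in the matching WT monocultures (SD, n = 3 each). In SG-free monocultures it averaged 695 ± 68.6 FPKM in KO cells and 800 ± 15.5 FPKM in WT cells, so KO cells still held much of this transcript, and how far it can check the knockout depends on the edit. In cocultures it averaged 716 ± 106 FPKM (SG-free) and 874 ± 9.34 FPKM (with serine and glycine) in KO cells, against 1311 ± 83.0 FPKM and 1300 ± 55.2 FPKM in WT cells. Among PDAC markers, the cytokeratin Krt18 reached 659 to 2554 FPKM over the 24 libraries, while the epithelial markers Epcam and Cldn4 did not exceed 1.30 and 0.0345 FPKM. The 22 hepatocyte markers summed to 1.18 to 2.73 FPKM in cocultures and to 0.871 to 2.77 FPKM in monocultures. Of these, 12 were at 0 in every library and albumin did not exceed 0.131 FPKM. Replicate 1 of the serine- and glycine-fed KO monocultures stood apart from its partners (chi-square per degree of freedom 65.7 and 53.0 over genes). Replicate 1 of the SG-free KO monocultures did so to a smaller degree (18.2 and 14.1), and replicates 1 and 2 of the SG-free KO cocultures lay far from each other (41.1). Pairs within the other 5 groups had values of 2.99 to 9.59. Results that rest on these libraries are also given with 3 outlying KO libraries left out, replicate 1 of each kind of monoculture and replicate 2 of the SG-free cocultures. These 3 were chosen after seeing the data. From replicate 3 of the SG-free KO cocultures, replicate 1 lay at 15.5 and replicate 2 at 13.8. These distances do not single out replicate 2. Leaving out libraries far from their partners can lower the estimated spread, so a higher count in that fit is no added support.

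SREBP2 acts at sterol response elements, often beside a CCAAT box bound by the factor NF-Y, so promoters of 5 genes are shown with both motifs. They are Hmgcs1, the synthase that commits acetyl-CoA units to the pathway, and Idi1, Nsdhl and Insig1, each with the largest change of its role group on the log2(FPKM + 1) scale in KO against WT cells of SG-free monoculture. As a ratio of FPKM, Fdps and Dhcr7, whose levels were lower, changed more than Idi1 and Nsdhl there. Lbr, a nuclear envelope protein with sterol reductase activity whose level did not pass the test on withdrawal, is shown beside them. The windows come from RefSeq (GRCm38.p6) and run from 250 bases before to 50 bases after the annotated start, in the direction of the gene. Capitals mark the letters TCACNCCAC (the core of the sterol response element) and CCAAT, each on either strand.
Hmgcs1, chr13:119690101-119690400, plus strand: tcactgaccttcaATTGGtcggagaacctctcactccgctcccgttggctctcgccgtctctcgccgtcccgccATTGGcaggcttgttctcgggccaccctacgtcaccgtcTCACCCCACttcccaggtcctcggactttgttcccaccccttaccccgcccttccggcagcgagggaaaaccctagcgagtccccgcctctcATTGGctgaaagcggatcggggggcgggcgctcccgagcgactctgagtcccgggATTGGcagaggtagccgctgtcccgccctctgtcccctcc
Idi1, chr13:8885356-8885655, plus strand: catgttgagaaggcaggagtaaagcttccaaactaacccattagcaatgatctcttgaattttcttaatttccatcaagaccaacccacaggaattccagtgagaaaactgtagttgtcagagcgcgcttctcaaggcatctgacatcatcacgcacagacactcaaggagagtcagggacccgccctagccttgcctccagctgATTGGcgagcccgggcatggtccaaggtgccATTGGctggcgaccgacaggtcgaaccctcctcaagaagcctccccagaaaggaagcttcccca
Nsdhl, chrX:72918271-72918570, plus strand: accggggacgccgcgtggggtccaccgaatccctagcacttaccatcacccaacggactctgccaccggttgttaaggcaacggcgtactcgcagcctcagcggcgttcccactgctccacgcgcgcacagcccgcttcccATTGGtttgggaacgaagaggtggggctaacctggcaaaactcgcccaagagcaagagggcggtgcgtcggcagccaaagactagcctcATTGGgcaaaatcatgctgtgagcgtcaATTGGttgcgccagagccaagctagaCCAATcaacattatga
Insig1, chr5:28071162-28071461, plus strand: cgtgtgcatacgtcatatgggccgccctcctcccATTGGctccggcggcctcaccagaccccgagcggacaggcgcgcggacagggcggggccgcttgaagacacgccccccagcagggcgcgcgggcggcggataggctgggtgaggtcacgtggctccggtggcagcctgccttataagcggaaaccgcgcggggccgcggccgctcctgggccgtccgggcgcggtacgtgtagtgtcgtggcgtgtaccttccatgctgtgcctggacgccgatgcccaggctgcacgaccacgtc
Lbr, chr1:181842352-181842651, minus strand: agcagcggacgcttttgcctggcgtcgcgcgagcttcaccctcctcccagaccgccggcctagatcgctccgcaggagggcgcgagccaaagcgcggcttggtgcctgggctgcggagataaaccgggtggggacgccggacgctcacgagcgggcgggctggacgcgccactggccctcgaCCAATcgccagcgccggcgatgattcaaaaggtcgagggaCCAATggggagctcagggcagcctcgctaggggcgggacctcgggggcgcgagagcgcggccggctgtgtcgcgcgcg

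The sterol response element letters occurred once among these windows, in Hmgcs1, 137 bases before the start. Promoter windows matched 23 of the 28 genes, and 1 of the 23 held those letters, against 1.24% of all 32851 windows in the RefSeq table and 1.36% of the tested genes that had a window. The CCAAT letters occurred in 20 of the 23 genes, against 37.4% of all windows and 43.4% of the tested genes that had one. Hmgcs1 and Nsdhl had 4 CCAAT matches each, Idi1 and Lbr had 2 each, and Insig1 had 1, 216 bases before its start. In Idi1 the matches lay 45 and 14 bases before the start. A match describes letters only, and Lbr, which did not pass the test on withdrawal, held CCAAT matches too.

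Transcript levels of the set spread widely. In WT monocultures with serine and glycine, Insig1 had the highest mean at 77.7 FPKM, ahead of Srebf2, the gene of SREBP2 itself, at 57.9 FPKM. The lowest means among the genes that passed the filter on low values belonged to Fdps, farnesyl diphosphate synthase, at 2.75 FPKM and Dhcr7, the reductase of the last step, at 2.94 FPKM. Of the 28 genes, 26 reached 1 FPKM in 3 or more libraries, the filter used here, as did 12061 genes of the table. Abca1, which exports cholesterol across the plasma membrane, had 201 reads over all 24 libraries and at most 0.167 FPKM. Mylip, a ubiquitin ligase that marks lipoprotein receptors for breakdown, had 5 reads, all in replicate 2 of the SG-free KO cocultures, and 0 in the other libraries. Neither was tested. Some levels are uncertain because the gene shares bases with another one and the labels do not state whether counting used strand. Fdps shares 7512 bases with a same-strand gene model listed at 0 and 104 bases with a same-strand small nuclear RNA gene, Gm22935, at a mean of 3.85 FPKM. Tm7sf2 shares 9356 bases with Vps51, and Fdft1 shares 774 bases with the abundant Ctsb on the opposite strand. Mvd shares 9822 bases with an opposite-strand gene model listed at 0, and Npc1, Cyp51 and Ggps1 share 305, 166 and 257 bases with less abundant genes.

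KO and WT cells were first compared in SG-free monoculture, which gives the difference between genotypes in the same medium. Most of the set was lower in KO cells. Of the 26 tested genes, 22 fell and 1 rose in KO cells (limma, adjusted p under 0.05). That is 88.5% of the set, against 73.6% of all tested genes called in either direction, and 84.6% of the set fell and 3.85% rose, against 36.3% and 37.4% of all genes. At least 2-fold falls made up 18 of the 26 (69.2%), against 12.4% of all genes. The median log2 change of the set was −1.46, against 0.00 over all genes. The 22 genes that fell had between 2.31% and 69.3% of their WT level in KO cells, with a median of 27.1%. With the 3 outlying KO libraries left out, 22 genes fell and 1 rose. Log2 changes were computed from log2(FPKM + 1), so the change of a gene with a low FPKM is understated, and every rank of genes by log2 change holds on this scale. Fdps and Dhcr7, with 2.31% and 3.42% of their WT level in SG-free KO monocultures, changed the most as a ratio of FPKM in their role groups here, but not on the log2 scale.

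In the sterol arm, 11 of 12 genes fell, led on the log2(FPKM + 1) scale by Nsdhl, a dehydrogenase that acts in the removal of methyl groups from sterol intermediates (ENSMUSG00000031349, GRCm38 chrX:72918557-72958514, plus strand). Nsdhl had 1.12, 0.983 and 1.60 FPKM in SG-free KO monocultures, against 22.9, 22.02 and 23.01 FPKM in SG-free WT monocultures. All 3 KO libraries lay far below all 3 WT libraries, and the log2 change was −3.41 ± 0.09 (SE; limma adjusted p = 3.63e-17). Nsdhl kept 5.45% of its WT level. Dhcr7 (−1.88), Cyp51, the lanosterol demethylase (−1.77), and Hsd17b7, a ketosteroid reductase (−1.69), followed. Lbr was the one sterol arm gene that did not pass the test, with 11.2, 11.5 and 11.01 FPKM in KO cells and 12.6, 10.97 and 12.5 FPKM in WT cells. Its groups overlapped, and its log2 change was −0.09 ± 0.06 (limma adjusted p = 0.212).

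In the mevalonate arm, 7 of 8 genes fell, all of them at least 2-fold. Idi1, which interconverts the isoprenoid units (ENSMUSG00000058258, chr13:8885501-8892451, plus strand), had 2.69, 1.51 and 2.31 FPKM in SG-free KO monocultures, against 15.9, 16.3 and 15.6 FPKM in SG-free WT monocultures. The groups did not overlap, and the log2 change was −2.44 ± 0.18 (limma adjusted p = 1.94e-10). Mvd, the mevalonate diphosphate decarboxylase, changed by −2.16 and Hmgcs1 by −1.79. Fdps had 5, 0 and 11 reads in the KO libraries, against 284, 245 and 268 reads in the WT libraries. Ggps1, which diverts isoprenoids to geranylgeranyl groups, was at 0.09 ± 0.11 and did not pass the test (limma adjusted p = 0.492).

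Among the regulators, Insig1, the retention protein that SREBP2 itself induces (ENSMUSG00000045294, chr5:28071363-28078662, plus strand), had 13.6, 13.8 and 14.0 FPKM in SG-free KO monocultures. In SG-free WT monocultures it had 79.2, 75.8 and 77.7 FPKM. The KO libraries were tight and sat at 17.8% of the WT mean (log2 change −2.41 ± 0.04, limma adjusted p = 1.01e-19). Srebf2 had 20.5, 25.7 and 24.2 FPKM in KO cells, against 61.5, 59.4 and 61.1 FPKM in WT cells, a log2 change of −1.34. The escort gene Scap fell by 0.72, and Insig2, the second retention protein, was at 0.00 and did not pass the test. Of the transport genes, Stard4, a soluble sterol carrier (ENSMUSG00000024378), had 1.60, 1.20 and 0.943 FPKM in KO cells, against 14.4, 14.9 and 13.9 FPKM in WT cells (−2.79 ± 0.08, limma adjusted p = 1.33e-16). Npc1, which releases cholesterol from lysosomes (ENSMUSG00000024413), was the 1 gene that rose, with 25.4, 25.2 and 24.2 FPKM in KO cells and 18.2, 17.2 and 18.8 FPKM in WT cells. Its groups did not overlap, and its log2 change was 0.45 ± 0.05 (limma adjusted p = 9.02e-08). Bulk libraries cannot tell fewer cells that express a gene from less of its RNA per cell.

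**Figure D1:**
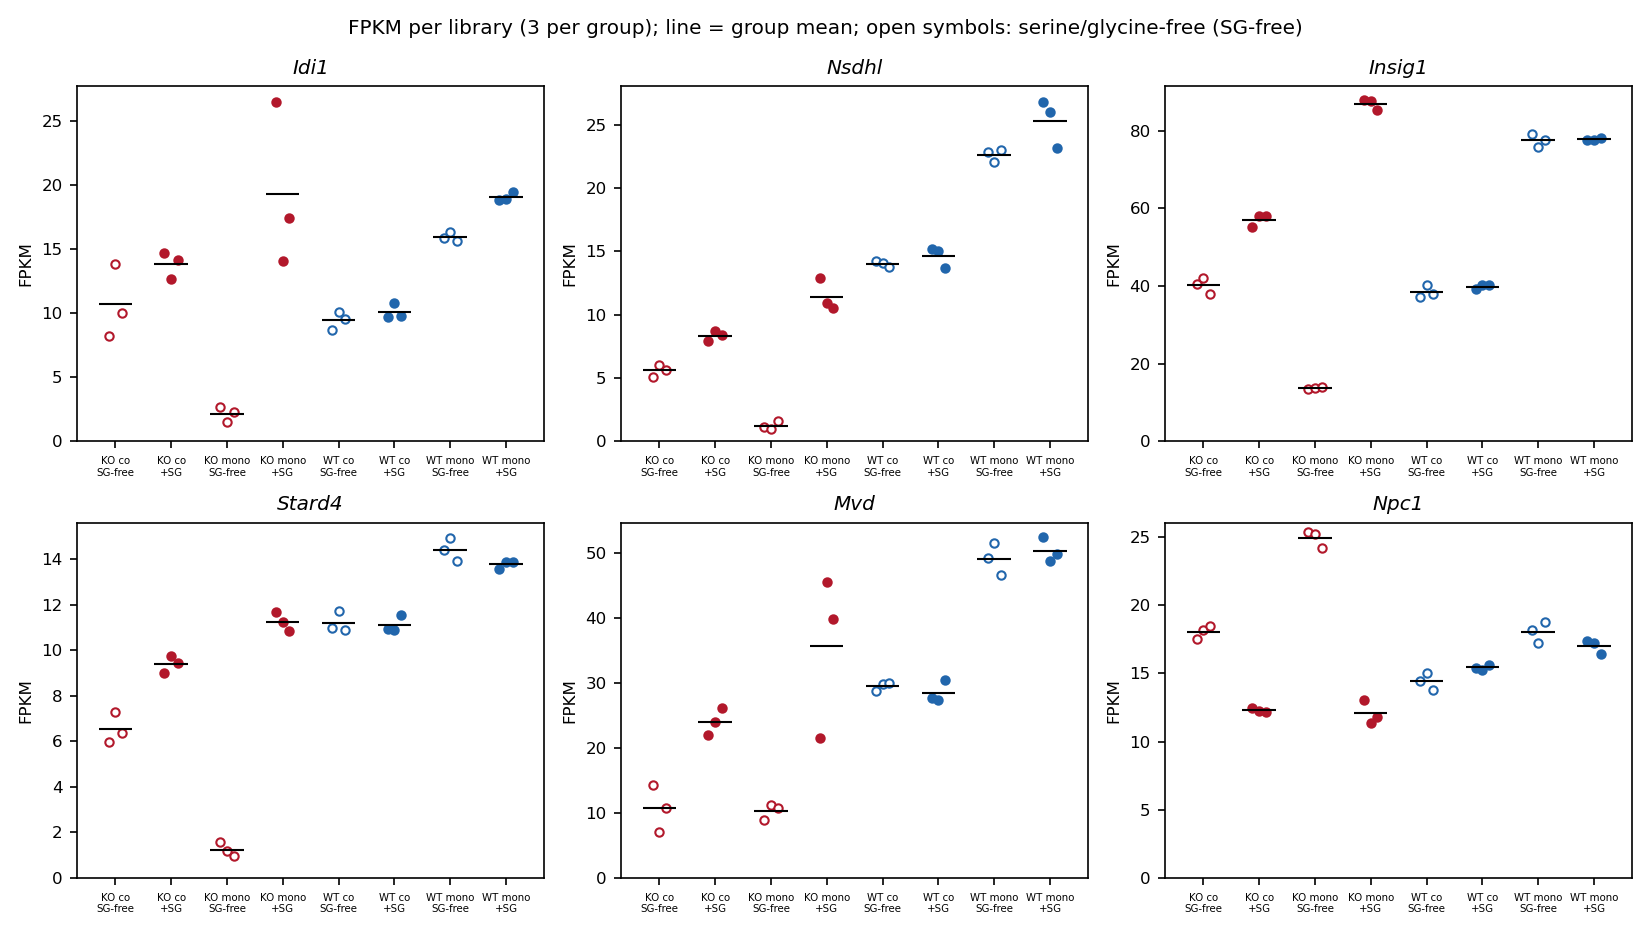
FPKM of Idi1, Nsdhl, Insig1, Stard4, Mvd and Npc1 in each library (y axis, linear, from 0) by group (x axis, co = coculture, mono = monoculture, SG = serine and glycine), with KO in red, WT in blue, open circles for SG-free medium and a line at each group mean of 3 libraries. In SG-free KO monocultures the first 4 genes sit at their lowest, with Insig1 at 13.6 to 14.0 FPKM, while Npc1 sits at its highest, at 24.2 to 25.4 FPKM.

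With serine and glycine in the medium, the monocultures showed no common direction. There 6 of the 26 genes were higher and 8 lower in KO cells, together 53.8% of the set, against 42.7% of all tested genes, of which 21.5% were higher and 21.1% lower, and the median log2 change was −0.05. Nsdhl alone of the 26 was called with a change of at least 2-fold, against 1.87% of all genes lower by as much (−1.08 ± 0.09, limma adjusted p = 8.95e-09), with 12.9, 10.9 and 10.5 FPKM in KO cells, against 26.8, 25.99 and 23.1 FPKM in WT cells. Among the regulators, Insig2 was higher by 0.29 and Insig1 by 0.16. Of the transport genes, Npc1 was lower in KO cells by 0.46 on the log2 scale (12.1 ± 0.892 FPKM in KO cells and 17.0 ± 0.522 FPKM in WT cells, SD, n = 3 each). In the mevalonate arm Mvd had the largest change, −0.55 ± 0.20 (limma adjusted p = 0.0359), but its KO values were 21.5, 45.5 and 39.9 FPKM. Without replicate 1, the outlying KO library, it was at −0.23 (limma adjusted p = 0.265), and 8 genes were higher and 5 lower. The Mvd call was also lost without any 1 of the WT libraries (limma adjusted p = 0.0634 to 0.0915). Pmvk (−0.35) lost its call without the outlying library (−0.26, limma adjusted p = 0.0836) and without replicate 1 of the WT group (limma adjusted p = 0.0642). With the 3 outlying KO libraries left out, 8 were higher and 9 lower. With only these groups in the fit, 3 genes were higher and 3 lower.

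In hepatocyte coculture the set had members on both sides. With serine and glycine, 9 genes were higher and 5 lower in KO cocultures than in WT cocultures. That is 53.8% of the set, against 43.9% of all tested genes (21.8% higher and 22.0% lower), with a median log2 change of 0.16. Cyp51 was the most raised of the sterol arm (0.54), and in the mevalonate arm Acat2, the thiolase of the first step (0.50), and Fdps (0.49) were close on the log2 scale, with Fdps at 165.3% of WT and Acat2 at 145.7%. Of the regulators, Srebf2 and Insig1 were the most raised (0.51 each). Insig1 had 55.2, 58.0 and 58.0 FPKM in KO cocultures, against 39.1, 40.2 and 40.2 FPKM in WT cocultures, with no overlap (limma adjusted p = 7.08e-09). The lower genes were Nsdhl (−0.74), Npc1 (−0.30), Scap, Hsd17b7 and Stard4. Hsd17b7 lost its call with no filter and with any of 4 libraries left out (replicate 2 or 3 of the KO or replicate 1 or 2 of the WT cocultures), and Stard4 with a pseudocount of 0.1 and with any of 3 left out (replicate 1 or 3 of the KO or replicate 3 of the WT cocultures).

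In SG-free coculture, 6 genes were higher and 9 lower in KO than in WT cells, 57.7% of the set against 53.6% of all tested genes (26.3% higher and 27.4% lower), with a median of −0.00. The share called lay close to that of all genes, so the count is not a result about the set. With the 3 outlying KO libraries left out, 8 were higher and 11 lower. Mvd had 14.2, 7.11 and 10.8 FPKM in KO cocultures, against 28.8, 29.8 and 29.9 FPKM in WT cocultures (−1.43 ± 0.20, limma adjusted p = 8.42e-06). Nsdhl had 5.11, 6.03 and 5.66 FPKM in KO cocultures, against 14.3, 14.1 and 13.7 FPKM in WT cocultures (−1.19 ± 0.09, limma adjusted p = 1.17e-09). In both genes every KO library lay below every WT library. Pmvk, the phosphomevalonate kinase, was also lower by over 2-fold (−1.12), which makes 3 such genes (11.5% of the set, against 3.02% of all genes), and Stard4 (−0.70) and Scap (−0.61) led their role groups. The higher genes were Ggps1 (0.51), the methylsterol oxidase Msmo1 (0.38), Hmgcs1 (0.35), Npc1 (0.30), Insig2 (0.25) and the desaturase Sc5d (0.25). The Sc5d call was lost in 11 alternatives, 5 of them with 1 library left out, and its change was 0.14 without replicate 2 of the KO cocultures (limma adjusted p = 0.276). Msmo1 also lost its call without that library (0.27, limma adjusted p = 0.0611). Insig1 did not pass the test (0.06 ± 0.04, limma adjusted p = 0.212).

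**Figure D2:**
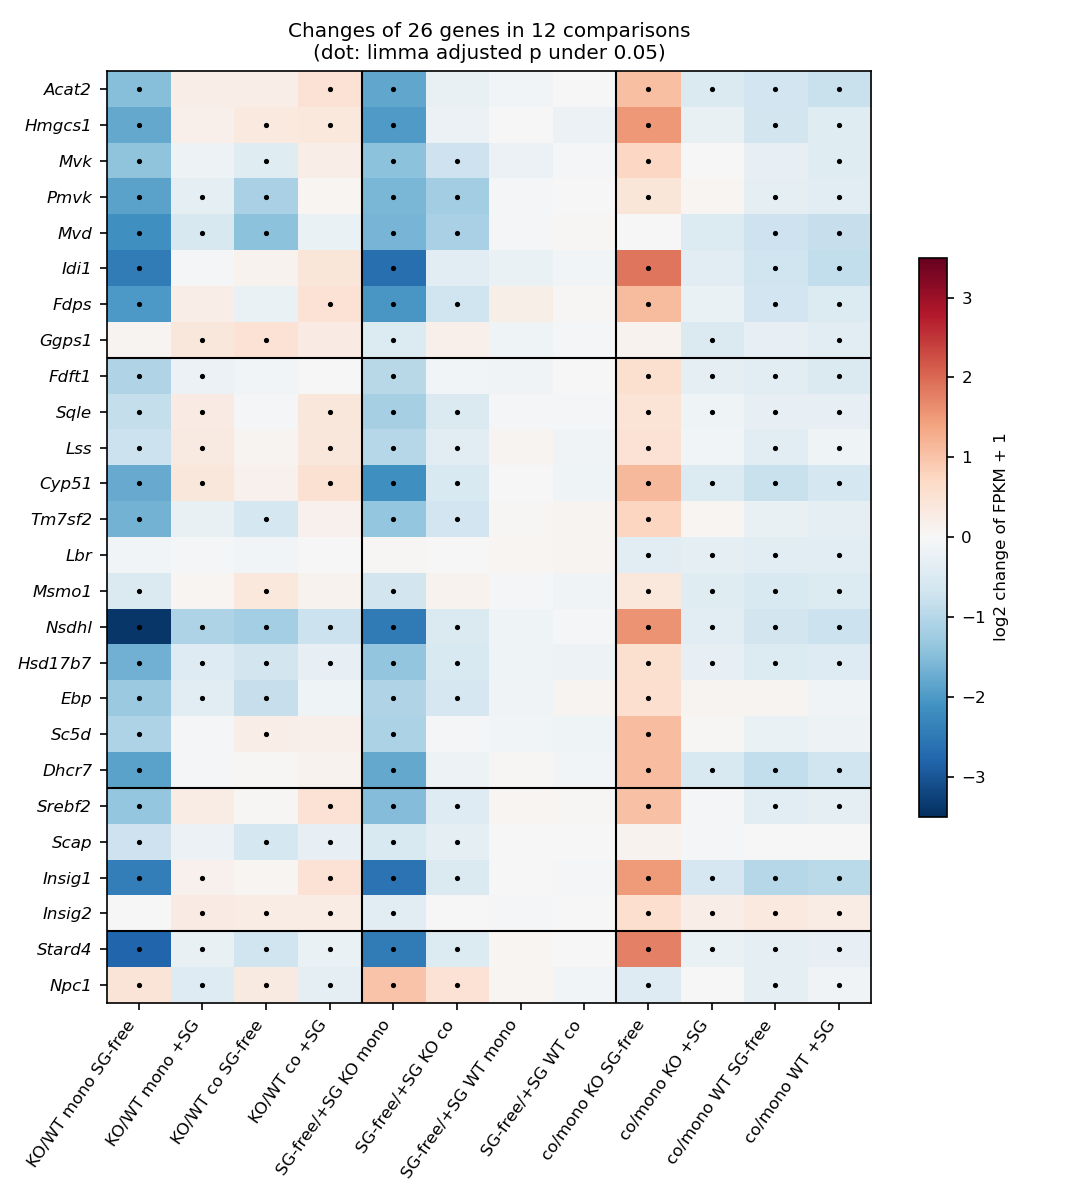
Log2 changes of FPKM + 1 (colour, blue lower and red higher in the group named first) of the 26 tested genes (rows, by role group) in the 12 comparisons of 2 groups (columns, co = coculture, mono = monoculture, SG = serine and glycine). A dot marks a limma adjusted p under 0.05, and the KO columns of SG-free monoculture hold the deepest blue, down to −3.41 for Nsdhl.

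Withdrawal of serine and glycine was then followed within each genotype. In KO monocultures 24 of the 26 genes fell and 1 rose, 96.2% of the set against 70.8% of all tested genes. Falls made up 92.3% of the set and the rise 3.85%, against 34.5% and 36.2% of all genes, and falls of at least 2-fold made up 69.2%, against 9.59%. The median log2 change was −1.41, and the genes that fell kept 2.23% to 76.3% of their level, with a median of 28.7%. On the log2(FPKM + 1) scale Idi1 had the largest change, with 2.69, 1.51 and 2.31 FPKM in SG-free KO monocultures, against 26.5, 14.1 and 17.4 FPKM with serine and glycine (−2.65 ± 0.18, limma adjusted p = 7.15e-11). Insig1 had 13.6, 13.8 and 14.0 FPKM in SG-free medium, against 87.8, 87.7 and 85.3 FPKM with serine and glycine (−2.57 ± 0.04, limma adjusted p = 7.39e-20). Nsdhl led the sterol arm on this scale (−2.48), with Cyp51 next (−2.16), and Stard4 changed by −2.46. With a pseudocount of 0.1 the order turned, with Fdps at −4.40, Dhcr7 at −3.87, Nsdhl at −3.13 and Idi1 at −3.08. None of these groups overlapped. With the 3 outlying KO libraries left out, 24 genes fell and 1 rose.

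Npc1 moved the other way in KO monocultures. It had 25.4, 25.2 and 24.2 FPKM without serine and glycine, against 13.1, 11.3 and 11.8 FPKM with them, which is 206.5% of that level (0.99 ± 0.05, limma adjusted p = 8.41e-13). Lbr was the gene that did not pass the test (0.04 ± 0.06, limma adjusted p = 0.536). Its 3 SG-free libraries, at 11.2, 11.5 and 11.01 FPKM, overlapped those with serine and glycine, at 11.6, 9.996 and 11.01 FPKM. Lbr and Tm7sf2 carry the same sterol reductase activity, and Tm7sf2 fell (0.438, 0.381 and 0.482 FPKM in SG-free medium, against 1.58, 3.38 and 3.26 FPKM with serine and glycine, −1.34). Among the smallest falls were those of Insig2 (−0.36), Ggps1 (−0.47) and Scap (−0.53).

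In WT cells no gene of the set passed the test on the same withdrawal. In monoculture 0 of the 26 genes passed the test (limma, adjusted p under 0.05), against 1.63% of all tested genes, and 0 had an unadjusted p under 0.05, where 11.9% of all genes did. In coculture 0 passed, against 0.738% of all genes, and 1 (Lss, the lanosterol synthase, at −0.12) had an unadjusted p under 0.05. Limma voom on the recovered reads also called 0 in each. The spread of each gene was estimated over all 8 groups, so the spread of KO libraries enters these WT tests. For Idi1 the SD was 6.43 FPKM in KO monocultures with serine and glycine, against 0.303 FPKM in the matching WT monocultures. With only the compared groups in the fit, 1 gene passed in WT monocultures. The log2 changes in WT monoculture ran from −0.24 in Idi1 to 0.21 in Fdps. Insig1 had 79.2, 75.8 and 77.7 FPKM in SG-free WT monocultures, against 77.5, 77.6 and 78.0 FPKM with serine and glycine, and these libraries overlapped. Idi1 and Fdps, at the ends of this range, did not overlap there. Idi1 had 15.9, 16.3 and 15.6 FPKM in SG-free medium, against 18.9, 18.95 and 19.4 FPKM with serine and glycine. Fdps had 3.64, 3.11 and 3.27 FPKM, against 2.575, 2.75 and 2.91 FPKM. These genes were picked as the ends of the range, and the share of all tested genes without overlap was not counted. A count of 0 does not by itself show that WT levels were unchanged.

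In KO cocultures withdrawal lowered 15 genes and raised 1, 61.5% of the set against 29.9% of all tested genes. Falls made up 57.7% of the set and the rise 3.85%, against 14.4% and 15.5% of all genes, and the median log2 change was −0.42. The genes that fell kept 40.2% to 78.0% of their level, with a median of 67.2%. Pmvk had 7.93, 6.32 and 4.83 FPKM in SG-free KO cocultures, against 16.2, 16.03 and 15.2 FPKM with serine and glycine (−1.22 ± 0.11, limma adjusted p = 3.14e-07). Mvd followed at −1.14, and these were the 2 falls of at least 2-fold (7.69% of the set, against 0.439% of all genes). Tm7sf2 led the sterol arm (−0.66), Insig1 the regulators (−0.50) and Stard4 the falls of the transport genes (−0.47). Npc1 rose again, with 17.5, 18.2 and 18.5 FPKM in SG-free KO cocultures, against 12.5, 12.2 and 12.2 FPKM with serine and glycine (0.52 ± 0.05, limma adjusted p = 3.55e-07). Idi1, first by log2 change in KO monoculture, had 8.24, 13.8 and 10.01 FPKM in SG-free KO cocultures, against 14.7, 12.7 and 14.1 FPKM with serine and glycine. Those libraries overlapped, and its change of −0.37 ± 0.18 did not pass the test (limma adjusted p = 0.118). With the outlying KO libraries left out, 19 genes fell and 1 rose, but without replicate 2 of the SG-free KO cocultures alone 15 genes were called.

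**Figure D3:**
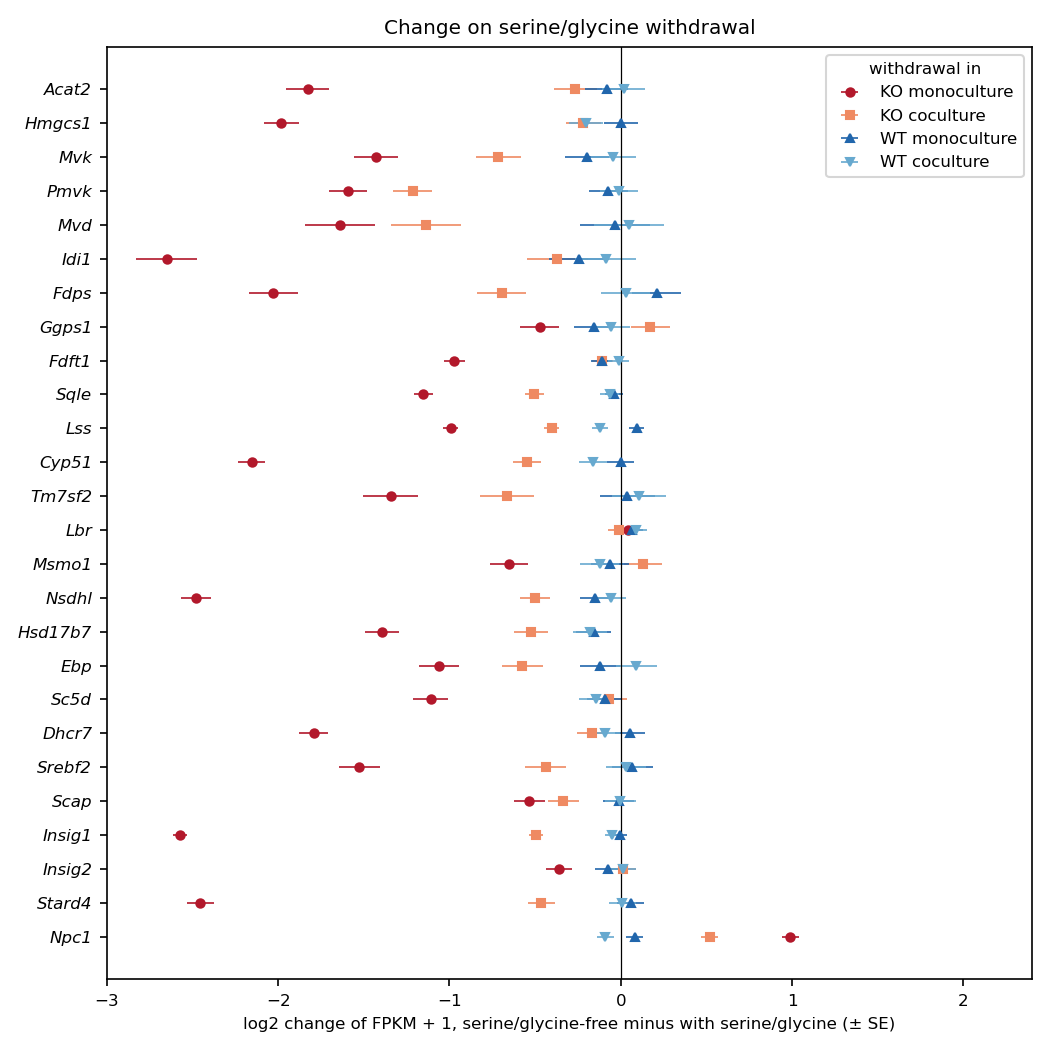
Log2 change of FPKM + 1 on serine and glycine withdrawal (x axis, SG-free minus with serine and glycine, bars ± SE) for the 26 tested genes (y axis) in KO and WT monocultures and cocultures of 3 libraries per group. WT monoculture symbols stay between −0.24 and 0.21, KO coculture symbols reach −1.22 in Pmvk, and KO monoculture symbols reach −2.65 in Idi1, with Npc1 at 0.99 on the other side.

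Coculture with hepatocytes was set against monoculture to ask how the presence of these cells altered the pathway. In SG-free KO cells 21 genes rose and 2 fell, 88.5% of the set against 71.3% of all tested genes. Rises made up 80.8% and falls 7.69% of the set, against 35.0% and 36.3% of all genes, and 11 rises (42.3% of the set) were at least 2-fold, against 10.8% of all genes. The median log2 change was 0.65. Idi1 had 8.24, 13.8 and 10.01 FPKM in SG-free KO cocultures, against 2.69, 1.51 and 2.31 FPKM in SG-free KO monocultures (1.87 ± 0.18, limma adjusted p = 1.17e-08). Stard4 had 5.96, 7.29 and 6.37 FPKM in coculture, against 1.60, 1.20 and 0.943 FPKM in monoculture (1.75 ± 0.08, limma adjusted p = 1.73e-13). Both genes were higher in every coculture library than in any monoculture library. On the log2(FPKM + 1) scale Nsdhl led the sterol arm (1.57, against 1.08 for Dhcr7) and Insig1 the regulators (1.48, with 40.4, 42.1 and 38.0 FPKM in coculture, against 13.6, 13.8 and 14.0 FPKM in monoculture). With a pseudocount of 0.1, Fdps (3.10) and Dhcr7 (2.84) lay above Idi1 (2.25) and Nsdhl (2.12). The genes that fell were Npc1 (−0.44) and Lbr (−0.39). Mvd did not pass the test (0.01 ± 0.20, limma adjusted p = 0.956), with 14.2, 7.11 and 10.8 FPKM in coculture and 8.88, 11.2 and 10.8 FPKM in monoculture, and neither did Ggps1 (0.14) or Scap (0.12). With the outlying KO libraries left out, 22 genes rose and 2 fell.

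In WT cells coculture lowered most of the set. With serine and glycine, 21 genes fell and 1 rose, 84.6% of the set against 31.2% of all tested genes, and falls made up 80.8% and the rise 3.85%, against 14.9% and 16.3%. The genes that fell kept 48.0% to 90.7% of their monoculture level, with a median of 71.2%. With 1 library left out, 17 to 21 genes were called, against 22 in the main fit. Among the falls, Npc1 lost its call in 8 alternatives, Srebf2 in 7 (6 of them with 1 library left out) and Mvk in 3. Insig1 had 39.1, 40.2 and 40.2 FPKM in WT cocultures, against 77.5, 77.6 and 78.0 FPKM in WT monocultures (−0.95 ± 0.04, limma adjusted p = 6.28e-13). Idi1 led the mevalonate arm (−0.86), Nsdhl the sterol arm (−0.75) and Stard4 the transport genes (−0.29). Dhcr7 was at −0.71 on this scale but kept the smallest share, 48.0%, against 57.9% for Nsdhl. The gene that rose was Insig2 (0.26 ± 0.08, limma adjusted p = 0.0135). Its values were 11.5, 14.2 and 13.2 FPKM in WT cocultures and 10.6, 10.96 and 10.4 FPKM in WT monocultures, without overlap, but it lost its call without replicate 2 of these cocultures (0.20, limma adjusted p = 0.0853) and with voom on recovered reads (limma adjusted p = 0.0666). In SG-free WT cells 19 genes fell and 1 rose, 76.9% of the set against 28.1% of all tested genes (13.1% lower and 14.9% higher), again with Insig1 (−0.996) first and Insig2 (0.35) as the rise. Dhcr7 (−0.85), Mvd (−0.71) and Stard4 (−0.34) led the other role groups on the log2 scale, while in the mevalonate arm Fdps kept the smallest share (52.4%, against 60.1% for Mvd). Scap, Tm7sf2, Sc5d and Ebp, a sterol isomerase, did not pass the test in either WT comparison, nor did Mvk and Ggps1 in SG-free medium. In SG-free medium Pmvk lost its call in 8 alternatives and Srebf2 in 6, and 18 to 19 genes were called with 1 library left out.

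In KO cells with serine and glycine, coculture lowered 12 genes and raised 1, 50% of the set against 40.0% of all tested genes, with a median of −0.24. Falls made up 46.2% of the set and the rise 3.85%, against 19.9% and 20.1% of all genes. Insig1 (−0.60), Dhcr7 (−0.54), Acat2 (−0.52) and Stard4 (−0.24) led their role groups on the log2 scale, with Ggps1 (−0.51) close to Acat2. The Stard4 call was lost in 5 alternatives, with a pseudocount of 0.1, after both GC corrections (−0.15) and without replicate 1 of either KO group. Insig2 was the rise (0.23), a call lost in 7 alternatives, with replicate 2 or 3 of either KO group left out in 4 of them. With the outlying KO libraries left out, 16 genes fell and 2 rose. The 10 macrophage markers summed to 13.7 to 16.6 FPKM in WT cocultures and to 26.1 to 29.1 FPKM in WT monocultures, and to 2.08 to 8.93 FPKM in KO libraries, with Cd14 and Cd68 the most abundant and 4 of the 10 at 0 throughout. The PDAC epithelial markers summed to 2272 to 2429 FPKM in WT cocultures and 1192 to 1262 FPKM in WT monocultures. With serine and glycine they summed to 3512 to 3540 FPKM in KO cocultures and 1634 to 1869 FPKM in KO monocultures. In SG-free medium the sums were 3830 to 4134 FPKM in KO cocultures and 4347 to 4543 FPKM in KO monocultures. The part of either list in these results was not tested. The 22 hepatocyte markers stood at 1.18 to 2.73 FPKM in cocultures and 0.871 to 2.77 FPKM in monocultures, with 12 of them at 0 throughout.

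**Figure D4:**
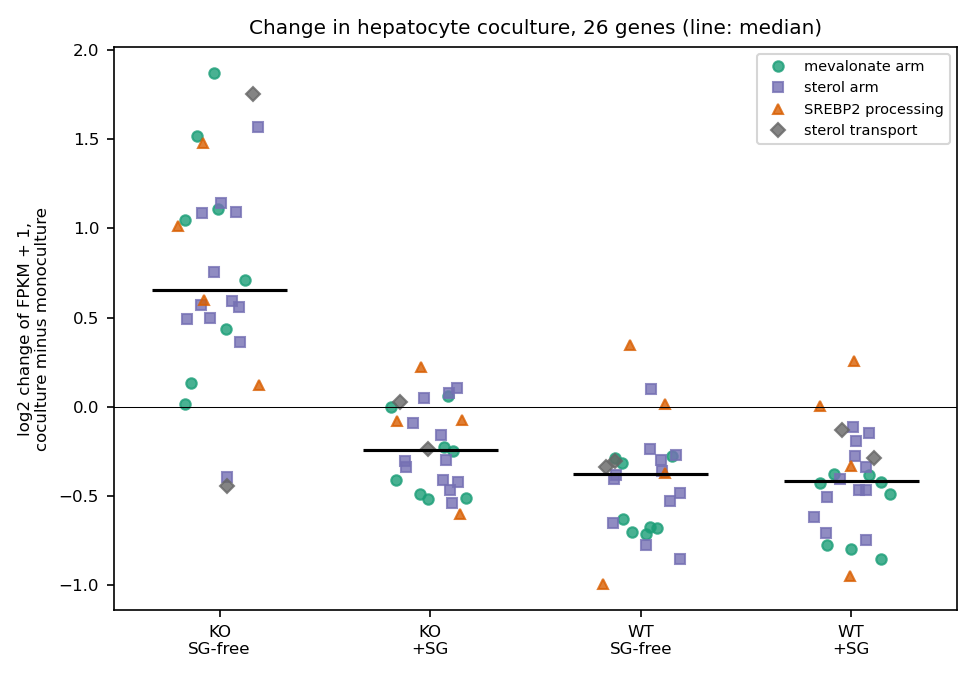
Log2 change of FPKM + 1 between hepatocyte coculture and monoculture (y axis) for the 26 tested genes, marked by role group, in SG-free KO cells, KO cells with serine and glycine, SG-free WT cells and WT cells with serine and glycine (x axis), with a line at the median. The median is 0.65 in SG-free KO cells and lies below 0, at −0.24 to −0.42, in the other 3 conditions.

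Differences between these effects were tested as interactions. The withdrawal change differed by genotype in monoculture for 24 of the 26 genes (92.3%, against 61.2% of all tested genes, 29.8% lower and 31.4% higher), lower in KO cells for 23 and higher for Npc1 (0.91 ± 0.07). The Insig2 call there was lost in 7 alternatives, 6 of them with 1 library left out, and such fits called 23 to 25 genes. On the log2(FPKM + 1) scale the largest difference was that of Insig1 (−2.57 ± 0.06, limma adjusted p = 4.88e-17). With a pseudocount of 0.1, Fdps (−4.67), Dhcr7 (−3.94), Stard4, Nsdhl and Idi1 lay beyond Insig1 (−2.65). In coculture 13 genes passed (50%, against 14.4% of all genes, 6.38% lower and 8.06% higher), 12 lower in KO cells, led by Pmvk (−1.20), and Npc1 higher (0.61). Within KO cells, coculture shifted the withdrawal change of 23 genes (88.5%, against 57.7% of all genes, 27.9% upward and 29.8% downward). For 22 of them the shift was upward, up to 2.28 ± 0.25 in Idi1 on that scale (limma adjusted p = 2.29e-07), and Npc1 shifted down (−0.47). Lbr, Mvd and Scap did not pass that test. The Pmvk call in it was lost in 14 alternatives, 9 of them with 1 library left out (limma adjusted p up to 0.162). Ebp lost its call there in 3 alternatives and Tm7sf2 in 1, and 21 to 25 genes passed with 1 library left out. The effect of coculture with serine and glycine present differed by genotype for 1 gene (3.85%, against 10.4% of all genes, 4.98% higher and 5.39% lower). That gene was Insig1 (0.35 ± 0.06, limma adjusted p = 0.000676), and 6 of the 26 had an unadjusted p under 0.05. This count rested on replicate 1 of the serine- and glycine-fed KO monocultures, since without it 8 genes passed. With the 3 outlying KO libraries left out, the 4 interactions held 24, 17, 24 and 9 genes in the order given here.

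The libraries that stood apart differed from their partners along the GC content of the transcripts, which ran from 40.6% in Idi1 to 59.2% in Mvd. Across the 26 genes, GC content and the deviation of replicate 1 of the serine- and glycine-fed KO monocultures from its partners had a Pearson r of −0.86. Over all tested genes that r was −0.58. The genes share these libraries, so the coefficient is a description. Idi1, low in GC, had 26.5 FPKM in that library, against 14.1 and 17.4 FPKM in its partners, and Mvd, high in GC, had 21.5 FPKM, against 45.5 and 39.9 FPKM. In SG-free KO cocultures r was 0.80 for replicate 1 and −0.79 for replicate 2. GC content and the log2 change had an r of −0.48 in KO against WT cells in SG-free coculture and −0.53 on withdrawal in KO cocultures, but 0.08 on withdrawal in KO monocultures. It was −0.59 for the genotype difference in the withdrawal change in coculture, and 0.50 on withdrawal in WT cocultures, a comparison that holds none of the libraries that stood apart. After a correction of each library for GC content and gene length, Mvd was still lower in KO than in WT cells of SG-free coculture (−1.17), as were Pmvk (−0.99), Ebp (−0.84) and Tm7sf2 (−0.50). Mvk, the mevalonate kinase, was at −0.42 before the correction and no longer passed after it (−0.18, limma adjusted p = 0.107).

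**Figure D5:**
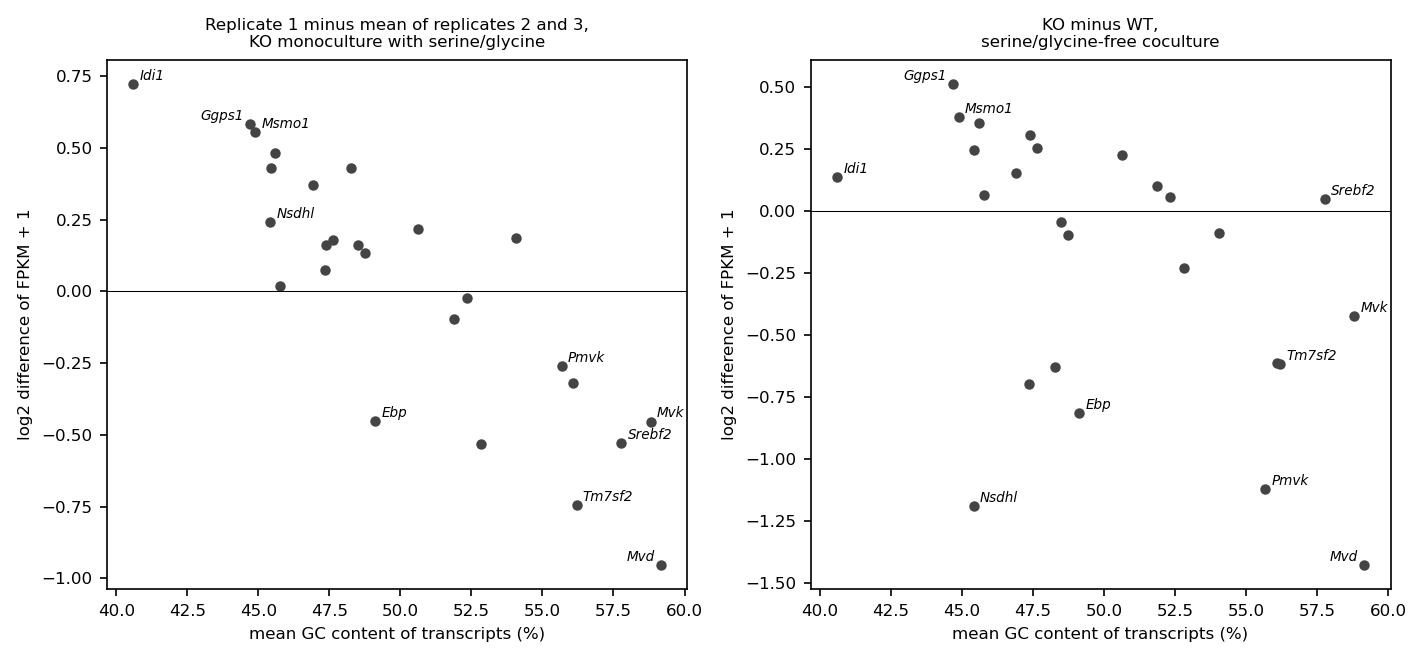
GC content of transcripts (x axis, percent) against log2 differences of FPKM + 1 (y axis) for the 26 tested genes, on the left for replicate 1 minus the mean of replicates 2 and 3 in serine- and glycine-fed KO monocultures, on the right for KO minus WT in SG-free coculture (3 libraries per group). Points fall from upper left to lower right on the left (r = −0.86) and less tightly on the right (r = −0.48), where Nsdhl lies low at a low GC content.

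Other genes of sterol and isoprenoid metabolism were read from a list of 38, of which 36 were tested. In KO against WT cells in SG-free monoculture 12 rose and 20 fell (88.9% called, against 73.6% of all tested genes). Their largest change was in Gramd1a, which carries cholesterol from the plasma membrane to the endoplasmic reticulum, with a mean of 1.67 FPKM in KO cells and 23.1 FPKM in WT cells (−3.17 ± 0.07, limma adjusted p = 3.16e-18). Gramd1a was also lower in KO cells in the 3 other comparisons of genotypes, at −1.12 in monoculture with serine and glycine, −0.97 in coculture with them and −1.13 in SG-free coculture. On withdrawal 9 rose and 22 fell in KO monocultures (86.1% called, against 70.8% of all tested genes), and 7 rose and 14 fell in KO cocultures (58.3%, against 29.9%). In WT monocultures 1 rose (2.78%, against 1.63%), and 0 passed in WT cocultures (against 0.738%). Coculture raised 21 and lowered 10 of them in SG-free KO cells (86.1%, against 71.3%), and raised 7 and lowered 13 in KO cells with serine and glycine (55.6%, against 40.0%). In WT cells it raised 3 and lowered 10 without serine and glycine, and raised 4 and lowered 9 with them, each 36.1% of the list and near the 28.1% and 31.2% of all genes. The largest of these WT changes was in Lrp1, a broad uptake receptor for lipoprotein remnants (1.79 with serine and glycine and 1.14 without).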

How the data were processed

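RNA sequencing libraries of HY19636 cells were analysed in 8 groups of 3. The authors deposited 1 table of FPKM per gene, and HISAT2 and the GRCm38 build are named in the submitters' processing notes. In all libraries 100% of values came out as whole reads (within 0.01 read) once the deposited FPKM was multiplied by gene length and divided by the value of 1 read, and 0 pairs of libraries were identical. Genes had to reach 1 FPKM in 3 or more libraries, which left 12061. Values were fitted as log2(FPKM + 1) in limma 3.58.1 (R 4.3.3, trended variance) with 8 group means and 16 residual degrees of freedom. All groups shared the estimate of spread of each gene, although KO groups varied more. The 12 comparisons of 2 groups and 4 interactions were tested, 2-sided, with Benjamini-Hochberg adjustment over all 12061 genes and a threshold of 0.05. The fit was tested on simulated data with the same dispersion in every group. That test does not cover the larger deviations of the KO libraries. Genes named are those with the largest called change in each role group, those called against the direction of most members, and those not called where most were. The members and lists were chosen with earlier results of these data known. Same-numbered replicates deviated together (r over 0.1) in 4 of 36 pairs, and in every pair of 1 comparison, withdrawal in KO monocultures, where a replicate block gave the same count of 25. Alternatives were another pseudocount (0.1), no filter, quantile normalization, limma voom on recovered reads (which called 96 to 8847 genes per comparison of 2 groups), fits of the compared groups alone, a replicate block and each library left out. A GC and length correction, alone and with the block, and a fit without 3 outlying KO libraries were chosen after seeing the data. Promoters are from RefSeq.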

Additional observations from a re-analysis of the deposited data

Results flagged for a closer look

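Effects that differed between groups by a test of the difference itself are listed here with their log2 values from limma. The withdrawal change differed between KO and WT monocultures for 24 genes (92.3%, against 61.2% of all tested genes), with Insig1 at −2.57, Stard4 at −2.51, Idi1 at −2.41 and Nsdhl at −2.33. The Insig2 call in that test was lost in 7 alternatives. In cocultures the withdrawal change differed between KO and WT for 13 genes (50%, against 14.4%), with Pmvk at −1.20, Tm7sf2 at −0.77, Insig1 at −0.44 and Npc1 at 0.61. The Tm7sf2 call was lost with no filter and with any of 7 single libraries left out (limma adjusted p of 0.0547 to 0.0797 over these). Calls in this test were also lost for Cyp51 (8 alternatives), Fdps (6), Mvk (4) and Nsdhl (4). With 1 library left out, 10 to 15 genes passed it. The withdrawal change differed between KO cocultures and KO monocultures for 23 genes (88.5%, against 57.7%), with Idi1 at 2.28, Insig1 at 2.08, Stard4 at 1.99 and Nsdhl at 1.98. Calls in that test were lost for Pmvk (14 alternatives), Ebp (3) and Tm7sf2 (1). The coculture change with serine and glycine differed between KO and WT cells for 1 gene, Insig1, at 0.35, which is 3.85% of the set, below the 10.4% of all genes. It was 8 genes without replicate 1 of the KO monocultures fed both amino acids, and 8 after the GC and length correction.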

How the results depend on the processing

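Of 246 called member values, 44 lost their call under at least 1 alternative and 0 changed sign. The counts that moved by over 1.5 times or changed their balance were these. KO against WT monocultures with serine and glycine gave 6 genes with only the compared groups in the fit, and 11 to 14 with 1 library left out. Higher calls outnumbered lower ones there without replicate 1 of the KO group (13 called) and without replicate 1 of the WT group (11 called). Withdrawal gave 1 gene in WT monocultures with only the compared groups in the fit, and 1 in WT cocultures after the GC and length correction. Coculture of KO cells with serine and glycine gave 8 genes with only the compared groups in the fit and 10 to 14 with 1 library left out. The genotype difference in the coculture change gave 8 genes after the GC and length correction, 7 with that correction and the replicate block, 9 without the 3 outlying KO libraries, and 1 to 8 with 1 library left out. The cause was not tested. With the replicate block alone 242 of the 246 values kept their call. Outside withdrawal in KO monocultures, no comparison had every same-numbered pair deviating together at r over 0.1 (r of −0.34 to 0.40 over all pairs). The labels do not say whether a shared number marks a shared batch. Depth limits Abca1, Mylip, Fdps and Dhcr7, which had few reads in some groups.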
